A study of Mus musculus with 4 samples.

Results

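Clec2d and 6 genes of its lectin family or of the NKR-P1 receptor family were examined in lungs with 4T1 metastases, and they were taken by gene name from 56748 genes in the count table. The ligand genes were Clec2d, Clec2g, Clec2h and Clec2i, and the receptor genes were Klrb1b, Klrb1c and Klrb1f. Their counts in the groups compared here were known when they were chosen, so their values are given as a description without a test. Of the 7 genes, 5 had at least 1 count and 2, Clec2d and Klrb1b, passed the expression filter, as did 15320 genes of the whole table.

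CLEC2 proteins (also named Clr or Ocil) are C-type lectin-like molecules on the cell surface, and NKR-P1 proteins are their receptors on NK cells and some T cells. Clec2d encodes Clr-b, which is carried by most hematopoietic cells and engages NKR-P1B, an inhibitory receptor encoded by Klrb1b. Loss of Clr-b from a stressed, infected or transformed cell releases NK cells from this inhibition, a form of missing-self recognition that does not involve MHC class I. Clec2i encodes Clr-g, a ligand of the stimulatory receptor NKR-P1F (Klrb1f), and Clec2h encodes Clr-f, which is found mainly in the gut. Klrb1c encodes NKR-P1C, the stimulatory receptor known as NK1.1 in C57BL/6 mice. Ligand and receptor genes lie intermingled in the NK gene complex. In the count table the 7 genes lie on chromosome 6 between positions 128639348 and 129163497 (mm39).

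The comparison was between 2 samples from mice given saline (PBS control in the labels, hereafter controls) and 2 from mice given the ADC/cmLumiOpto combination (hereafter treated). The methods of the study name 4 biological samples per group, and 2 per group were analyzed here. The animals were female BALB/cJ mice aged 7 weeks when 4T1-FLuc cells, a luciferase-expressing triple-negative breast cancer line of BALB/c origin, were injected into the tail vein, and the labels name no altered gene in the host. The ADC is an anti-CD276 antibody carrying the microtubule inhibitor mertansine (DM1), and cmLumiOpto is a gene therapy, delivered by antibody-tagged exosomes holding AAV, that depolarizes mitochondria with a light-gated channel, expressed from a cfos promoter meant to favor cancer cells, once the substrate ViviRen is given. The labels give 16 mg/kg of ADC, 3 weeks of treatment, the abbreviation Olap and harvested tumor cells, whereas the methods of the study give 8 mg/kg and dissociated lung tissue. The labels themselves do not number the mice, and p-values measure the spread between these samples. Total counts were between 15263375 and 19675436 per sample, at which 3 counts correspond to between 0.152 and 0.197 CPM (counts per 1000000 after TMM scaling of library sizes, or of total counts for this floor), covering counting error only. Transcripts of 10 lung epithelium markers were found in every library, with summed levels of 2716 and 432 CPM in controls and 11825 and 7883 CPM in treated lungs, although the labels name tumor cells.

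The bases before the transcription start of Clec2d and of Clec2i are shown, because these were the ligand genes with counts and only the first differed widely between groups. RefSeq sequences of GRCm38.p6 were found for 7 of the 7 genes, and the 250 bases before each listed start (a pair of starts for Clec2i and for Klrb1b, the first listed being shown) were searched on both strands. Capitals mark a pair of GAAA letters with 2 bases between them, the core of an interferon-stimulated response element (ISRE). The Clec2d sequence is chr6:129180365-129180614 (plus strand) and the Clec2i sequence is chr6:128887337-128887586 (plus strand).
Clec2d: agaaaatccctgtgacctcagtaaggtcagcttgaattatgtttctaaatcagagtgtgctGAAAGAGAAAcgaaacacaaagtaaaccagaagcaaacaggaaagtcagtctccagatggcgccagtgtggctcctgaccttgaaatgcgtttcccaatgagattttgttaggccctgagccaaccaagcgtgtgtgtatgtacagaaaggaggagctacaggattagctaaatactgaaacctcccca
Clec2i: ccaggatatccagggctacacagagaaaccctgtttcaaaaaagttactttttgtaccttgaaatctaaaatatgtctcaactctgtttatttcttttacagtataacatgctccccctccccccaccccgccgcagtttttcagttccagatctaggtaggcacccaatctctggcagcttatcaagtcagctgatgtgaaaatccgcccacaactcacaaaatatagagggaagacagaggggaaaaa
The match in Clec2d, GAAAGAGAAA, began 189 bases before the start. None of the other 6 genes had this motif in its window, which was present in 2.98% of 32851 RefSeq promoters of the same length. The GAS motif TTCNNNGAA (7.02% of promoters) and the TATA box TATAAA (12.4%) were found in no window of the 7 genes. The CCAAT box CCAAT (33.8%) was found in those of Clec2d, Clec2i and Clec2g. A match describes letters of the reference strain only.

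Clec2d was about 4 times higher after ADC/cmLumiOpto. The gene (ENSMUSG00000030157, protein-coding) is listed on chromosome 6 at 129157578 to 129163497, plus strand, in mm39, the build in the submitters' notes, and no other listed gene overlaps it. Its counts were 204 and 187 in controls against 879 and 1071 in treated lungs, or 12.8 and 12.6 CPM against 49.8 and 52.2 CPM. Both treated samples lay far above both saline samples, and the samples of each group were close to each other. Controls averaged 12.7 ± 0.105 CPM and treated lungs 51.0 ± 1.70 CPM (SD, n = 2 each). This was a log2 fold change of 2.01 in edgeR, on a scale where the median of all tested genes was 0.028.

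The spread of Clec2d within the groups was small for this data set. Clec2d was chosen with these counts known, so nothing is read from its spread or from the shares that follow. The saline samples differed by 0.016 on the log2 scale, and 4.06% of tested genes had a smaller difference between these samples, whose median was 0.23. The ADC/cmLumiOpto samples differed by 0.067, with 13.7% of tested genes having a smaller difference and a median of 0.27. As 348 of the 15320 tested genes (2.27%) had a log2 fold change at least as high, counting Clec2d itself, its fold change was among the higher ones and not at the extreme. In bulk samples, fewer (or more) cells of a type and less (or more) RNA per cell cannot be told apart.

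**Figure D1:**
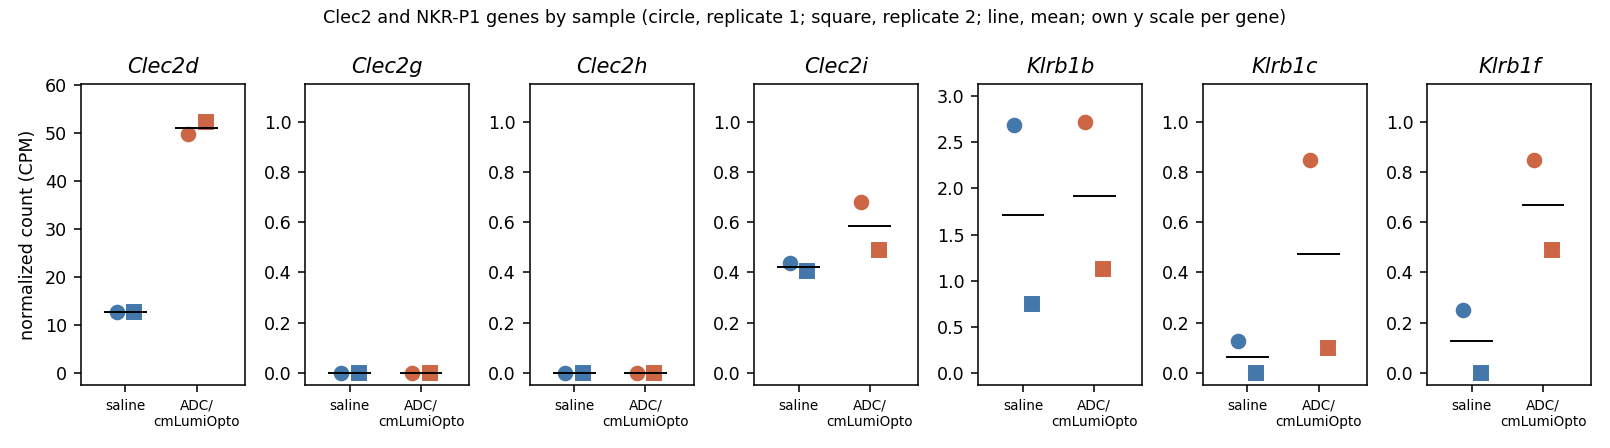
Normalized count (CPM, vertical axis, own scale for each gene) of the 7 genes in the saline (blue) and ADC/cmLumiOpto (orange) samples. Circles are replicate 1, squares replicate 2 and lines the mean of 2 samples. Clec2d stands at 12.6 and 12.8 CPM against 49.8 and 52.2 CPM, whereas no other gene exceeds 2.72 CPM in any sample.

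Clec2i (ENSMUSG00000030365), the ligand gene for NKR-P1F, had 7 and 6 counts in controls against 12 and 10 in treated lungs. The treated samples lay just above the saline samples, at 0.68 and 0.49 CPM against 0.44 and 0.40 CPM. From summed counts the ratio of treated to saline was 1.37, with an exact 95% interval for counting error alone of 0.66 to 2.96. Clec2g (ENSMUSG00000000248) and Clec2h (ENSMUSG00000030364) had 0 counts in all 4 samples, which allows up to 3 counts, or 0.152 to 0.197 CPM, in each. Per kilobase of gene length, Clec2d stood at a mean of 10.5 CPM in the saline group and 42.1 CPM in the ADC/cmLumiOpto group, and Clec2i at 0.14 and 0.19 CPM.

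The gene of the Clr-b receptor gave no separation of the groups. Klrb1b (ENSMUSG00000079298), the gene of NKR-P1B, had 43 and 11 counts in controls against 48 and 23 in treated lungs. The groups overlapped, and replicate 1 was the higher sample in both. Controls averaged 1.71 ± 1.38 CPM and treated lungs 1.92 ± 1.13 CPM (SD, n = 2 each), with log2 fold change 0.15. Its sign depended on single libraries, at -0.49 without saline replicate 2, -0.61 without ADC/cmLumiOpto replicate 1, 1.35 without saline replicate 1 and 0.65 without ADC/cmLumiOpto replicate 2.

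The genes of the stimulatory receptors had few counts. Klrb1f (ENSMUSG00000030154), for NKR-P1F, had 4 and 0 counts in controls against 15 and 10 in treated lungs. Both treated samples were above both saline samples, and the ratio of summed counts was 5.05 with an exact 95% counting interval of 1.74 to 19.97. Klrb1c (ENSMUSG00000030325), for NKR-P1C, had 2 and 0 counts in controls against 15 and 2 in treated lungs. Most of its treated counts came from replicate 1 and the groups overlapped, with a ratio of 6.87 and a counting interval of 1.63 to 61.3.

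Groups did not overlap for Clec2d among the 2 genes of the family that passed the filter, and both treated samples were higher in 28.1% of all tested genes. Among the 3 genes with counts that did not pass, the same held for Clec2i and Klrb1f, against 15.7% of the 10243 such genes of the table (both treated samples lower in 8.52%). The choice of the genes used this contrast, so nothing is read from these counts.

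Parts of the receptor genes cannot be told apart from one another by short reads. In the GENCODE transcripts of GRCm38, 27.2% of the 50-base windows of Klrb1b and 17.0% of those of Klrb1c also occurred in another gene, mostly Gm44511, Klrb1a or each other. For Clec2d the share was 1.98%, in Clec2g and Clec2i, both of which had at most 12 counts in any sample. For Klrb1f the share was 0%. Some members also overlap genes on the opposite strand, Clec2g with Gm15987, Clec2i with BC035044 and Klrb1f with Gm43992 and Gm44000, and the span of Gm44511 covers nearly all of Klrb1b and part of Klrb1c. Whether counting used strand is not given in the sources used here, so reads of such pairs cannot be told apart, and reads in a shared stretch may be counted for neither gene. The NK gene complex differs between mouse strains and the gene models follow C57BL/6J, while the mice and the 4T1 line are BALB/c, and the loss of reads from BALB/c alleles was not tested.

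Of 7 further CLEC2, NKR-P1 and neighboring lectin genes found in the table, 2 passed the filter, and 0 had an adjusted p under 0.05 by the quasi-likelihood test of edgeR after Benjamini-Hochberg adjustment. That test called 0 of the 15320 genes (0%), while 3553 (23.2%) had an unadjusted p under 0.05, 1690 (11.0%) higher and 1863 (12.2%) lower. The edgeR exact test called 1143 genes (7.46%) and DESeq2 called 1353 (9.99% of those with an adjusted p), but neither called a gene of this list. Cd69 (ENSMUSG00000030156), an early activation lectin of lymphocytes encoded near Clec2d, had 40 and 8 counts in controls against 86 and 124 in treated lungs. Both treated samples were higher, with log2 fold change 1.83 ± 0.67 (SE, unadjusted p = 0.031 and edgeR adjusted p = 0.177). Clec2f (ENSMUSG00000089728), a close relative of Clec2d, had 130, 78, 96 and 58 counts in the same order. Its groups overlapped and its log2 fold change was -0.70 ± 0.45 (SE, edgeR adjusted p = 0.378).

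Per kilobase, Clec2f and Clec2d had like levels in the saline group, at 10.2 and 10.5 CPM, with Clec2f at 12.4 and 8.0 CPM in the single samples. In the ADC/cmLumiOpto group they stood at 6.29 and 42.1 CPM, and neither treated sample of Clec2f reached those of Clec2d. Klrb1a (ENSMUSG00000030361) had 6, 0, 15 and 7 counts and Clec2e (ENSMUSG00000030155) had 2, 1, 4 and 17, listed as controls 1 and 2, then treated 1 and 2. Clec2l had between 1 and 4 counts, and Klrb1 and Clec2j had 0 in every sample. Of the 4 lists of pathway genes given here, Klrb1d was the only name not in the table.

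Signaling genes of NKR-P1 receptors were next compared. Stimulatory NKR-P1 receptors signal through the adaptor FcRγ (Fcer1g) and Syk family kinases, and NKR-P1B recruits the phosphatase SHP-1 (Ptpn6). Of 16 tested genes, 0 had an adjusted p under 0.05 in edgeR's quasi-likelihood test. At an unadjusted p under 0.05 in that test, 3 were higher and 1 was lower (11.0% and 12.2% of all tested genes). Both treated samples were higher for 9 and lower for 3, against 28.1% and 28.8% of all tested genes. The median log2 fold change of the list was 0.56. It was 0.81 without saline replicate 1, 0.21 without saline replicate 2 and 0.31 without either ADC/cmLumiOpto sample in turn.

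Tyrobp (ENSMUSG00000030579), the DAP12 adaptor of NK and myeloid cells, was at 73.1 and 60.6 CPM in controls and 127 and 147 CPM in treated lungs. Its log2 fold change was 1.04 ± 0.18 (SE, edgeR adjusted p = 0.116), and it was called by DESeq2 (adjusted p = 1.35e-04) and the edgeR exact test (adjusted p = 0.00192). Hcst (ENSMUSG00000064109), the DAP10 adaptor of NKG2D, had 51 and 37 counts in controls against 77 and 244 in treated lungs, with log2 fold change 1.52 (edgeR adjusted p = 0.170). Ptpn6 (ENSMUSG00000004266) averaged 72.9 ± 11.0 CPM in controls and 119 ± 27.9 CPM in treated lungs (SD, n = 2 each), with log2 fold change 0.71 (edgeR adjusted p = 0.147, 0.0473 in DESeq2). Plcg1 (ENSMUSG00000016933), a phospholipase of antigen receptor signaling, stood lower after treatment, at 101 ± 0.476 CPM and 65.8 ± 17.0 CPM (SD, n = 2 each), with log2 fold change -0.62 (edgeR adjusted p = 0.165). Fcer1g and Syk, named above for the stimulatory NKR-P1 receptors, had log2 fold changes of 0.43 and 0.77 (edgeR adjusted p = 0.323 and 0.219).

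Other ligands of NK cell receptors were set beside Clec2d, whose fold change was larger than that of any tested gene among them. As Clec2d was chosen with its counts known, nothing is read from this rank. Of 16 such genes 12 were tested and 0 had an adjusted p under 0.05 in edgeR's quasi-likelihood test, with 3 higher and 1 lower at an unadjusted p under 0.05 (11.0% and 12.2% of all tested genes). Treated samples were both higher for 5 and both lower for 2 of the 12, against 28.1% and 28.8% of all tested genes. The median log2 fold change was 0.25, and it was -0.12 without ADC/cmLumiOpto replicate 1, 0.37 without ADC/cmLumiOpto replicate 2 and 0.12 without saline replicate 2. The largest was that of Cd48 (ENSMUSG00000015355), the ligand of the receptor CD244, at 152 and 87 counts in controls against 448 and 309 in treated lungs. Its log2 fold change was 1.39 ± 0.37 (SE, edgeR adjusted p = 0.123, 0.0127 in DESeq2 and 0.0243 in the edgeR exact test).

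Icam1 (ENSMUSG00000037405), the adhesion ligand of LFA-1, was at 66.0 and 32.2 CPM in controls and 106 and 110 CPM after treatment, with log2 fold change 1.13 (edgeR adjusted p = 0.134, 0.0121 in DESeq2 and 0.0334 in the edgeR exact test). The MHC class Ib gene H2-T23 (ENSMUSG00000067212), whose product Qa-1 engages the inhibitory receptor NKG2A, had a log2 fold change of 0.80 (edgeR adjusted p = 0.186). Ulbp1 (ENSMUSG00000079685), a stress-induced ligand of NKG2D, had 600 and 1179 counts in controls against 496 and 732 in treated lungs, with log2 fold change -0.87 (edgeR adjusted p = 0.204). The classical MHC class I genes H2-K1 and H2-D1 had log2 fold changes of 0.28 and 0.21 (adjusted p = 0.535 and 0.531 in edgeR).

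**Figure D2:**
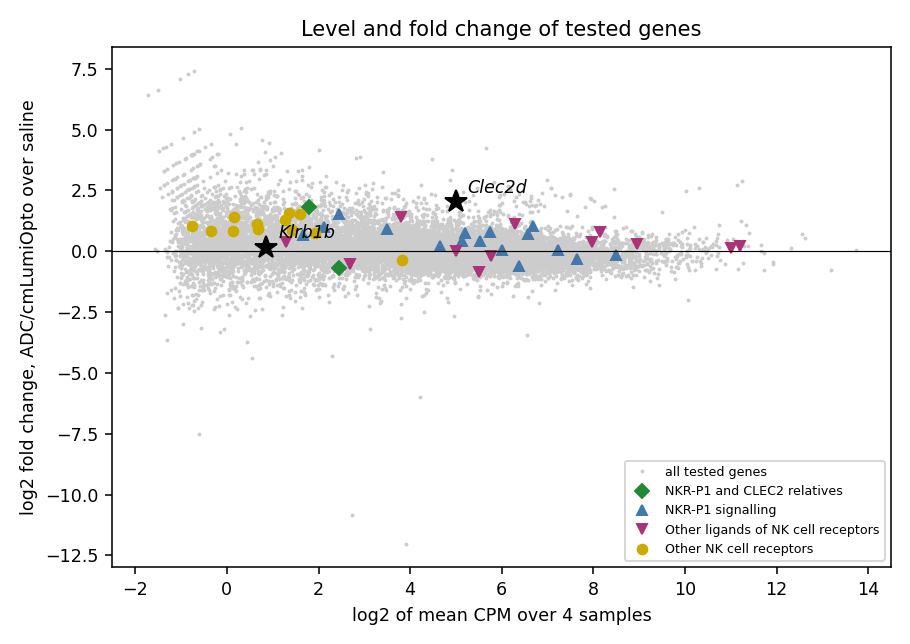
Log2 fold change of ADC/cmLumiOpto over saline (vertical axis) against the log2 of mean CPM over 4 samples (horizontal axis) for 15320 tested genes (grey), with the 4 pathway lists in color and Clec2d and Klrb1b as stars. Clec2d lies at 2.01 and Klrb1b at 0.15, and Cd69 at 1.83 is the highest colored point.

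The other NK cell receptors were mostly rare. Of 20 genes 12 were tested and 0 had an adjusted p under 0.05 in edgeR's quasi-likelihood test (0 also in DESeq2 and the edgeR exact test), with 3 higher and 0 lower at an unadjusted p under 0.05 (11.0% and 12.2% of all tested genes). Both treated samples were higher for 7 and lower for 1 of the 12, against 28.1% and 28.8% of all tested genes. The median log2 fold change was 0.97. It was 1.88 without saline replicate 1 and 0.75 without saline replicate 2. Without ADC/cmLumiOpto replicate 1 it was 0.84, and without ADC/cmLumiOpto replicate 2 it was 1.5. The expression filter was rerun in each of these fits, so the genes entering the median could differ. Klrd1 (ENSMUSG00000030165), which encodes the CD94 chain that pairs with NKG2 receptors, had 25 and 15 counts in controls against 93 and 48 in treated lungs, with log2 fold change 1.55 (edgeR adjusted p = 0.177). Klrc1 (ENSMUSG00000030167), for NKG2A, had 29, 15, 74 and 54 counts in the same order and a log2 fold change of 1.26. Cd226 (ENSMUSG00000034028), a stimulatory receptor for nectin-like ligands, had 37, 12, 93 and 76 counts and a log2 fold change of 1.51, and the Ly49 gene Klra3 (ENSMUSG00000067591) had 13, 6, 37 and 24 counts and a log2 fold change of 1.40. The adjusted p values of Klrc1, Cd226 and Klra3 in edgeR were 0.208, 0.187 and 0.244. Ncr1, the receptor NKp46 that marks NK cells, had 17, 1, 17 and 22 counts, so its groups overlapped. Klra3, Ulbp1 and the H2 genes belong to multigene families, so their counts are uncertain where the counting could split reads between copies.

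Clec2d was set beside markers of the cells that a lung with metastases can hold, and the part of these cells in the difference was not tested. Leukocytes were followed by Ptprc (ENSMUSG00000026395), which encodes CD45. It was at 69.9 and 47.9 CPM in controls and 105 and 174 CPM in treated lungs, a fold of 2.37 between group means where that of Clec2d was 4.02. Per 100 CPM of Ptprc there were 18.2 and 26.3 CPM of Clec2d in controls and 47.4 and 30.0 CPM in treated lungs. The treated samples remained above the saline samples on this ratio, with means of 22.3 ± 5.72 and 38.7 ± 12.3 (SD, n = 2 each), 1.74 times higher.

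Summed markers of lymphocytes varied more within groups than Clec2d did, a gene chosen with its counts known. The 12 NK cell markers summed to 80.3 and 43.7 CPM in controls and 123 and 63.0 CPM in treated lungs. Klra8 among them had 0 counts in every sample and Klre1 had 0 in saline replicate 2. Both treated samples were higher for 2 and lower for 1 (Prf1) of the 9 tested, against 28.1% and 28.8% of all tested genes. The 12 T cell markers summed to 63.5 and 23.1 CPM against 123 and 62.7 CPM. Of them 11 of 11 tested genes had a positive log2 fold change (median 1.02, against 0.028 over all tested genes), the lowest being 0.054 for Cd4. Both treated samples were higher for 5 of the 11 and lower for 0, against 28.1% and 28.8% of all tested genes. The 10 B cell markers summed to 14.3 and 5.93 CPM against 16.4 and 15.1 CPM, with Ms4a1 and Blk among those at 0 in saline replicate 2. For NK and T cells the sum in ADC/cmLumiOpto replicate 2 was below that in saline replicate 1, an order not seen for Clec2d, and without Cd8a, the most abundant T cell marker, the T cell sums no longer overlapped (48.9 and 14.8 CPM against 91.9 and 50.4 CPM).

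Summed markers of macrophages and monocytes and of dendritic cells depended on single abundant genes. The 11 macrophage and monocyte markers summed to 3253 and 2476 CPM in controls and 6186 and 3867 CPM in treated lungs. Lyz2, the lysozyme gene, made up between 45.6% and 69.5% of these sums, and without it they overlapped, at 1566 and 1348 CPM against 1887 and 1419 CPM, while 7 of the 11 markers had a positive log2 fold change and 4 a negative one. The 10 dendritic cell markers summed to 281 and 189 CPM against 519 and 269.7 CPM, and Siglech and Cd209a had 0 counts in saline replicate 2. Bst2, an interferon-induced gene also expressed outside dendritic cells, made up between 71.0% and 84.9% of these sums, and without it the groups were apart, at 66.3 and 28.5 CPM against 118 and 78.2 CPM. The 10 neutrophil markers summed to 1281 and 651 CPM in the saline samples, 1280 CPM in ADC/cmLumiOpto replicate 1 and 8532 CPM in replicate 2. The treated samples of Clec2d were at 49.8 and 52.2 CPM, and the part of neutrophils in its difference was not tested.

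**Figure D3:**
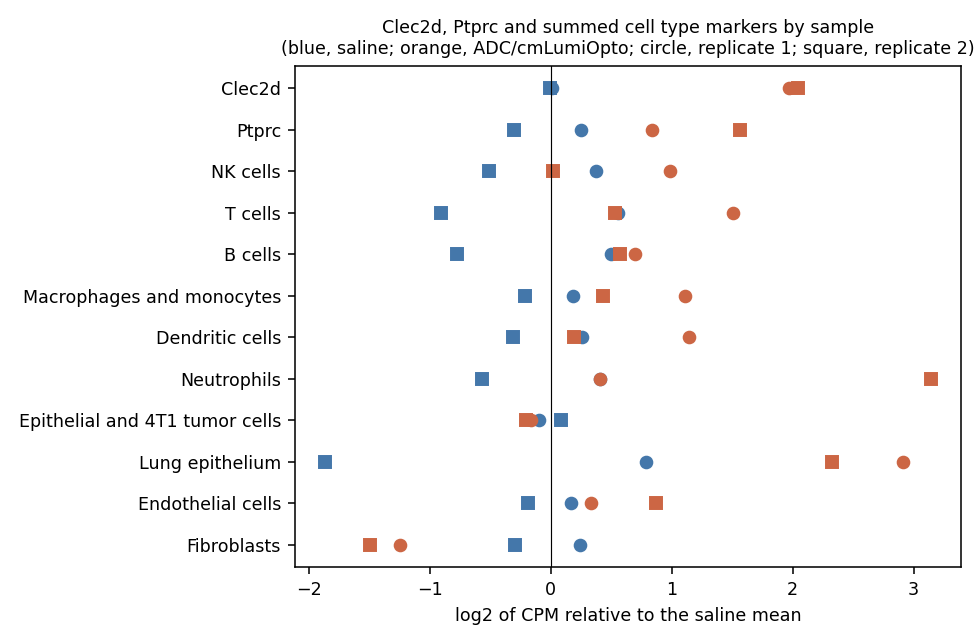
Log2 of CPM relative to the saline mean (horizontal axis) for Clec2d, Ptprc and the summed markers of 10 cell types (rows), with saline in blue, ADC/cmLumiOpto in orange, replicate 1 as circles and replicate 2 as squares. The 2 samples of each group nearly coincide for Clec2d, while summed lung epithelium markers span 432 to 11825 CPM.

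Lung epithelium was the one marker list whose sum differed by more than Clec2d in this direction with groups apart, 6.26 times in the mean, with 10 of 10 tested genes higher in both treated samples against 28.1% of all tested genes. The list of 10 markers of epithelial and 4T1 tumor cells summed to 3002 and 3398 CPM in controls and 2866 and 2779 CPM in treated lungs, where Krt5 was at 0 in 3 of 4 samples. The 10 fibroblast markers summed to 5279 and 3632 CPM against 1876 and 1583 CPM. The 10 endothelial markers summed to 595 and 464 CPM against 668 and 971 CPM. No endothelial, lung epithelium, fibroblast or macrophage marker was at 0 in a sample.

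Per 100 CPM of the summed lung epithelium markers there were 0.47 and 2.92 CPM of Clec2d in controls and 0.42 and 0.66 CPM in treated lungs, so that the groups overlapped. Per 100 CPM of the dendritic cell markers the values were 4.53 and 6.66 against 9.59 and 19.4. For the NK cell markers they were 15.9 and 28.9 against 40.4 and 83.0, and for the macrophage and monocyte markers 0.39 and 0.51 against 0.81 and 1.35. On these 3 ratios both treated samples were higher, with means 2.59, 2.76 and 2.39 times those of the saline samples. Without Bst2 the dendritic cell ratio overlapped between groups, at 19.2 and 44.2 against 42.3 and 66.8, so its separation rested on that gene. Without the most abundant marker of their lists (Il2rb and Lyz2), both treated samples remained higher on the NK cell ratio (2.42 times in the mean) and on the macrophage and monocyte ratio (3.61 times). These sums without a marker were computed after the values were seen. Clec2d was chosen with its difference known, so a reference that rose less gives a higher treated ratio. The ratios are therefore a description and no support. The groups overlapped also per 100 CPM of the T cell markers (20.1 and 54.7 against 40.5 and 83.3) and of the neutrophil markers (0.995 and 1.94 against 3.89 and 0.61). For the epithelial and 4T1 tumor cell markers the values were 0.42 and 0.37 against 1.74 and 1.88, 4.55 times higher in the mean. On the ratios to B cell, endothelial and fibroblast markers both treated samples were higher, with means 2.15, 2.64 and 10.1 times those of controls. Without Cd22, the most abundant B cell marker, the B cell values were 164.5 and 467.5 against 472.6 and 502.8. Lung epithelium was the one of these references for which the treated mean of the ratio was below that of controls.

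**Figure D4:**
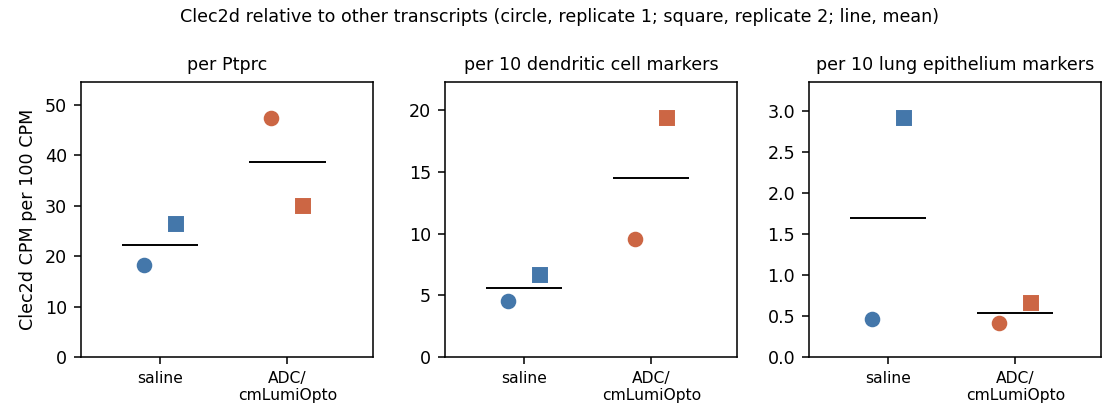
CPM of Clec2d per 100 CPM (vertical axes, own scale) of Ptprc, of 10 summed dendritic cell markers and of 10 summed lung epithelium markers in saline (blue) and ADC/cmLumiOpto (orange) samples. Circles are replicate 1, squares replicate 2 and lines the mean of 2 samples. Treated samples are higher for Ptprc (47.4 and 30.0 against 18.2 and 26.3) and the dendritic cell markers (overlapping once Bst2 is left out), and overlap with saline for lung epithelium.

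The genes whose pattern over the 4 samples was most like that of Clec2d were chosen by the smallest root mean square difference of log2(CPM + 0.5) after centering. They included Ccdc187 (0.11), Gm37516 (0.14), Oas2 (0.15) and Cyp4f15 (0.16), and 12 of the tested genes were within 0.2. Oas2 (ENSMUSG00000032690), an interferon-induced enzyme that is activated by double-stranded RNA, had 60 and 44 counts in controls against 214 and 253 in treated lungs. Ccdc187 had 2 and 1 counts against 31 and 31, Gm37516 had 0 and 0 against 18 and 29, and the cytochrome gene Cyp4f15 had 0 and 0 against 21 and 21, so the likeness of Ccdc187, Gm37516 and Cyp4f15 rests on the added 0.5 CPM. The measure covers the same samples as the group difference, so it is a description and carries no test.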

How the data were processed

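Bulk RNA sequencing covered 2 saline and 2 ADC/cmLumiOpto samples, grouped by their titles. Gene counts were deposited without normalization after alignment with HISAT2, beside a gene length in bases. The counting program and its use of strand are not given in the sources used here. The methods name GRCm38 and the submitters' notes name mm39. Of 52073 identifiers shared with GENCODE M21 of GRCm38, 1472 had the same start and end, so positions listed with the counts are given as mm39 and sequences as GRCm38.p6.

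The analysis ran in R 4.3.3, using edgeR 4.0.16 (filterByExpr with a minimum count of 10 and total of 15, TMM, estimateDisp, glmQLFit, glmQLFTest, Benjamini-Hochberg adjustment over 15320 genes, threshold 0.05). Limma 3.58.1 was loaded with edgeR, and DESeq2 1.42.0 was an alternative. A prior count of 0.125 entered each log2 fold change. Group means are mean ± SD of 2 samples, with CPM scaled by TMM. Ratios of summed counts have exact (Clopper-Pearson) 95% intervals, which cover counting error only. Alternatives were DESeq2, the exact test, library sizes without TMM, upper-quartile scaling, other filters, a replicate block, removal of the trend on gene length, and each sample left out. Named genes were the 7 members, the 4 tested genes with the smallest p in each pathway list, the 5 genes most like Clec2d and Ptprc, the rule also allowing the highest markers, given here only as sums, and others are named for their counts of 0 or their role after their values were seen. Some genes that the rule names are not reported here. The members and lists were chosen with earlier results of these data known.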

Additional observations from a re-analysis of the deposited data

How the results depend on the processing

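Clec2d kept its direction under every alternative run. It was chosen with these counts known and its groups stood far apart, so the kept direction is a description and no support. Its log2 fold change of 2.01 became 2.06 with library sizes without TMM, 2.09 with upper-quartile scaling, 2.05 with at least 10 counts in every sample and 1.71 with the trend on gene length removed (longer genes were lower, Spearman's rho -0.34 over genes, which are not independent), and spanned 1.97 to 2.04 over the fits that each omit a sample. Upper-quartile scaling put the median of all tested genes at 0.11. The 0 genes called by edgeR's quasi-likelihood test became 1353 in DESeq2, 1143 in the exact test, 2259 without a filter and 0 to 218 with each sample left out (218 without saline replicate 1, 10 without saline replicate 2 and 5 without ADC/cmLumiOpto replicate 1). For the signaling list of 16 genes the 0 calls became 2 in DESeq2, 1 in the exact test and 6 without a filter. Without a filter 25563 genes of the whole table were tested. For the other ligands they became 2 in DESeq2, 2 in the exact test, 4 without a filter and 0 to 1 with each sample left out, the 1 being Icam1 without saline replicate 1. Without a filter there was 1 call among the CLEC2 and NKR-P1 relatives (Cd69) and 2 among the other receptors (Cd226 and Klrd1). The cause of these changes was not tested.

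Whether same-numbered samples share anything beyond the number is not given in the sources used here. The correlation of their deviations over genes was 0.084. With the replicate number as a block, 607 of 15320 genes were called, with 1 in the signaling list (Tyrobp) and 2 among the other ligands (Icam1 and Cd48). Clec2d stayed at 2.01.

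The ratio of Clec2d to macrophage and monocyte markers, 2.39 times higher in treated lungs, was 3.61 times higher without Lyz2, an alternative chosen after seeing the data. Klrb1b turned to -0.049 with the length trend removed and spanned -0.61 to 1.35 over the fits that each omit a sample. The median of the CLEC2 and NKR-P1 relatives was 0.57 over Clec2f and Cd69. With at least 10 counts in every sample only Clec2f was left, at -0.66. Over the fits that each omit a sample the median of the list spanned 0.89 to 3.08. Each of these fits reran the expression filter and passed more genes than the main fit, so other relatives could enter. The span therefore does not measure how stable the median of Clec2f and Cd69 was. The genes behind the medians of the other ligands and of the other receptors could change in the same way. The median of the other ligands ranged from -0.12 to 0.37. Depth limits Clec2i, Klrb1c and Klrb1f, at no more than 15 counts in a sample, and says of Clec2g and Clec2h only that they were not detected.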

Other observations

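The stretch of chromosome 6 from Klrb1a to Clec2m, about 723 kb in mm39, held 40 listed genes, 15 of them protein-coding, and 9 genes passed the expression filter. Beside Clec2d, Klrb1b, Clec2f and Cd69, the protein-coding gene BC035044 had 12 and 6 counts in controls against 53 and 22 in treated lungs. The long noncoding RNA gene 2310001H17Rik, between Clec2d and Cd69, had 54 and 34 counts against 90 and 159, a log2 fold change of 1.18. Gm15987, a long noncoding RNA gene on the strand opposite to Clec2g, had 7 and 3 counts against 17 and 76, while Clec2g itself had 0. The pseudogene Gm5884 had 236 and 190 counts against 183 and 197, lower in both treated samples after normalization. Of the 9, Gm5884 and Clec2f were those with a negative log2 fold change. The genes of the stretch were listed after the values were seen, and no test is given.

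Interferon-stimulated genes were listed after Oas2 had been seen among the genes most like Clec2d, so their values are a description. Of 20 such genes, all tested, 19 had a positive log2 fold change and 1 a negative one. Their median was 0.51, against 0.028 over all tested genes, and their range -0.029 to 1.22. The share of positive signs over all tested genes was not computed. Of the 20, 0 reached the 2.01 of Clec2d. Both treated samples were higher for 4 of the 20, against 28.1% of all tested genes. Isg15, a ubiquitin-like protein induced by interferon, had 398 and 168 counts in controls against 1056 and 424 in treated lungs. Ifit3, an antiviral protein, had 353 and 90 counts against 777 and 448. In Isg15 and Ifit3 saline replicate 2 was lowest, whereas the saline samples of Clec2d were nearly equal.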
